A study of Mus musculus with 8 samples.

Results

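The genes described are 34 genes of the loop of Henle and the distal tubule, the part of the nephron that takes salt, calcium and magnesium back from the filtrate and makes the urine dilute. They were taken by name from 22180 measured genes, and all 34 were on the array. Of these, 10 were classed as early regulators, 12 as late transport genes and 12 as other members (secreted proteins, receptors, kinases and membrane proteins). RNA was measured in whole kidneys of mouse embryos at the embryonic stage E14.5, 4 embryos labelled Grb2 UB-cKO, called Grb2_cKO here, and 4 labelled wild-type control. The series is described as a knockout specific to the ureteric epithelium, and neither the Cre driver nor the strain is named in the sources used here. Each array holds the pooled left and right kidneys of 1 embryo, and all 8 embryos came from 1 litter. The comparison asks how losing Grb2 in the ureteric epithelium alters RNA in the whole kidney, including the nephrons, which arise from a different lineage.

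GRB2 is an adaptor that couples receptor tyrosine kinases, among them RET, to RAS. Nephrons form from mesenchyme that the ureteric bud induces. Each passes from a vesicle to a comma and an S shape, and the middle and distal parts of the S-shaped body become the loop and the distal tubule. Transcription factor genes of the POU, Iroquois, SIM and AP-2 families are switched on in these parts before most channel and transporter genes, which rise with maturation. In the mature loop, an apical cotransporter for sodium, potassium and chloride works with a potassium channel that returns potassium to the lumen. Some claudins in the tight junctions let calcium, magnesium and sodium pass between cells.

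Values are log2 probe-set values, so a difference of 1 is a 2-fold difference. Grb2 stood at 8.65 ± 0.03 in controls and 8.20 ± 0.12 in Grb2_cKO (SD, n = 4 each), 73.3% of the control level, and it is unknown here which part of the transcript its probe set reads. As a tissue check, Cdh16 and Pax8, picked from the 12 kidney identity markers counted below, were high in all 8 embryos. Cdh16, a cadherin of renal tubules, was at 9.74 to 10.24. Pax8 was at 11.03 to 11.14 in controls and lower, at 10.46 to 10.74, in Grb2_cKO. Not every marker on that list stayed high: Ret was at 9.51 to 9.77 in controls and 6.94 to 7.71 in Grb2_cKO. Sex was uneven between the groups: 3 Y-linked genes averaged 9.94 to 10.10 in Grb2_cKO replicates 1 to 4, 9.94 in control replicate 3, but only 4.09 to 4.24 in the remaining controls. Genotype is therefore compared between males on one side and mostly females on the other. A fit that adds this Y-linked average to the model, called the sex-adjusted fit below, rests on control replicate 3 to separate sex from genotype. Among marker lists, ureteric epithelium genes had 12 of 19 lower and 1 higher (mean level 8.48 to 8.61 in controls, 7.50 to 7.82 in Grb2_cKO). Macrophage genes had 9 of 12 higher and none lower (7.30 to 7.46, and 8.09 to 8.49). Endothelial genes had 8 of 13 higher and none lower (9.46 to 9.61, and 9.74 to 10.02). Erythroid genes had 5 of 7 higher and 1 lower (6.97 to 7.51, and 7.65 to 8.10). Neural crest, glial and neuronal genes had 3 of 13 higher and 2 lower (7.0 to 7.17, and 7.16 to 7.47), and the kidney identity markers, which include progenitor and bud genes, had 2 of 12 higher and 8 lower (10.35 to 10.55, and 9.46 to 9.82). The part these cell types play in the results below was not tested, and in RNA of whole kidneys fewer cells of a type and less RNA per cell cannot be told apart.

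Loop and distal tubule genes went both ways in Grb2_cKO kidneys. Of the 34 genes, 4 rose (Tmem52b, Tmem72, Sim2 and Wnk4), 6 fell (Tfap2a, Wfdc2, Calcr, Sim1, Pou3f3 and Stk39) and 24 did not pass an adjusted p of 0.05 (limma, adjusted by Benjamini-Hochberg over all 22180 genes). The 10 called genes are 29.4% of the members, where 28.1% of all genes were called, 13.7% higher and 14.3% lower, so the share of changed members was that of the genome at large. The groups did not overlap for 8 of the 34 genes (23.5%), where 31.2% of all genes did not. The median log2 fold change was 0.06 over the members and 0.0058 over all genes, and no member changed 2-fold. The early regulators had 1 gene higher, 3 lower and 6 not passing (median 0.12). The late transport genes had none of 12 passing (median 0.04), with 1 of 12 at an unadjusted p under 0.05, as 8429 of all 22180 genes were. The other members had 3 higher, 3 lower and 6 not passing (median 0.0035). In the sex-adjusted fit (limma) 0 of the 34 passed, where 5.62% of all genes did. There 6 members had an unadjusted p under 0.05 (4758 of the 22180 genes did). The 10 called genes kept their sign, as did 6225 of the 6227 genes called in the whole series. With the mean of erythroid genes in the model instead, 2 members passed (5.42% of all genes). At an adjusted p of 0.01 there were 4 (17.2% of all genes), and at 0.1 there were 12 (34.7%). The number of higher members was 1 without control replicate 1 or Grb2_cKO replicate 3, 2 without control replicate 2 or 4 or Grb2_cKO replicate 4, and 7 without Grb2_cKO replicate 2. The number of lower members was 3 without control replicate 3 or 4 or Grb2_cKO replicate 2. In the whole series 5386, 4894, 5496 and 5796 genes were called without control replicates 1 to 4, and 5955 without Grb2_cKO replicate 2.

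**Figure D1:**
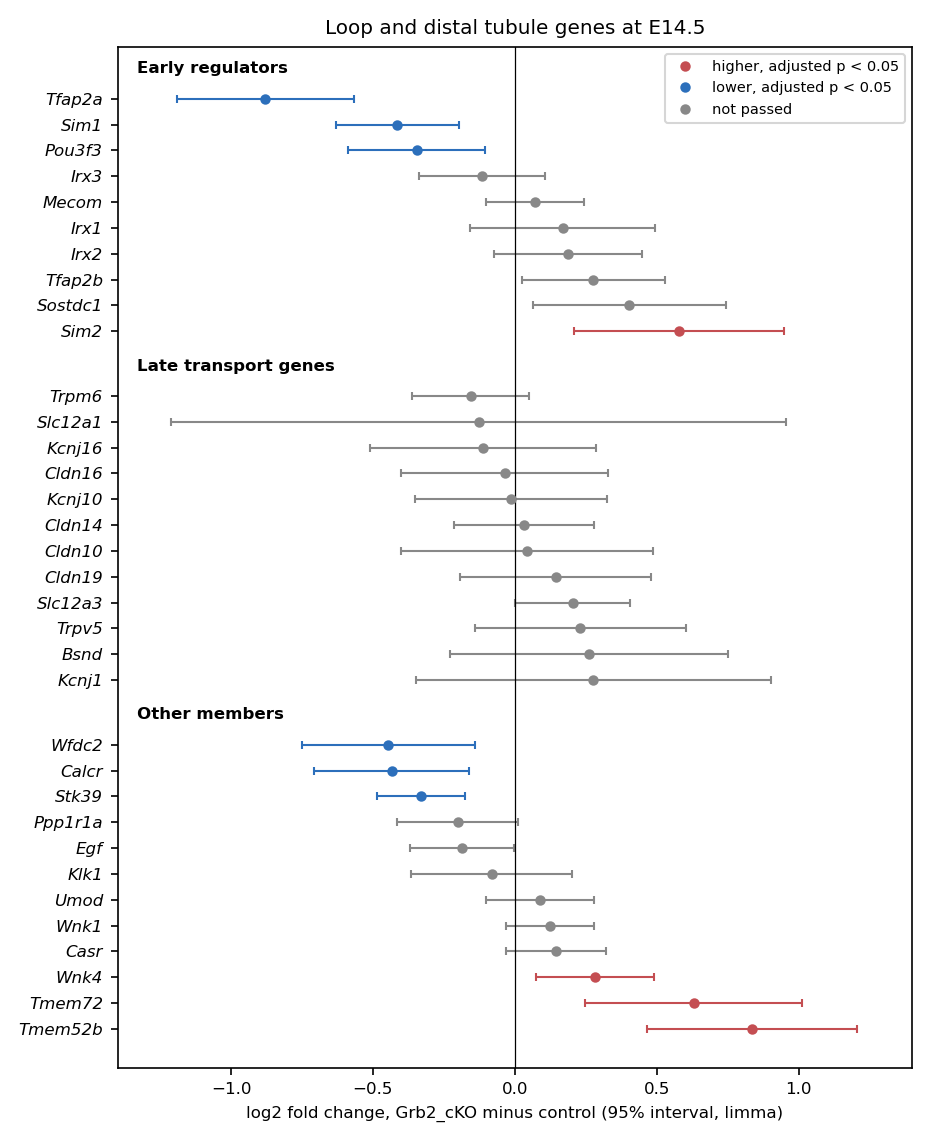
Log2 fold change of the 34 genes (x axis, Grb2_cKO minus control, point and 95% interval from limma, n = 4 embryos per group) in 3 classes, ordered by size within each. Changes past the threshold run from -0.88 for Tfap2a to 0.83 for Tmem52b, and among late transport genes every interval except that of Slc12a3 spans 0, the widest being that of Slc12a1.

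Upstream sequences are shown for the member with the largest fall (Tfap2a), the one with the largest rise (Tmem52b), the one that varied most between embryos (Slc12a1), the 2 kinase-pathway genes that moved in opposite directions (Stk39 and Wnk4) and Umod, a common marker of the loop. Each is the 250 bases before the annotated start in RefSeq, build GRCm38.p6, read 5′ to 3′ on the gene's strand. The windows are chr13:40734921-40735170 on the minus strand for Tfap2a (the more upstream of 2 starts), chr6:129512307-129512556 on the plus strand for Tmem52b, chr2:125152350-125152599 on the plus strand for Slc12a1, chr2:68471982-68472231 on the minus strand for Stk39, chr11:101260317-101260566 on the plus strand for Wnk4 and chr7:119479263-119479512 on the minus strand for Umod. Capitals mark matches on either strand to the palindromic AP-2 motif GCCNNNGGC, the HNF1 core GTTAAT and the GC box GGGCGG.
Tfap2a: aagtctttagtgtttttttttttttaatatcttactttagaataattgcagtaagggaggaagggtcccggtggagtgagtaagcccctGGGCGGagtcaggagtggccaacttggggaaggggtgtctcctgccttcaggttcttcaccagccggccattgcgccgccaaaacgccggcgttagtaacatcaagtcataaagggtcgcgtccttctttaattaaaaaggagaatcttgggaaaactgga
Tmem52b: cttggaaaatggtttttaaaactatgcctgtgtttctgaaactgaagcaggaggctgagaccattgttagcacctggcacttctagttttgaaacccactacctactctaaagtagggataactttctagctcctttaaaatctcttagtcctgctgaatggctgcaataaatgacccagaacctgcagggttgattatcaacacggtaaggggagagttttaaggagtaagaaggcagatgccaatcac
Slc12a1: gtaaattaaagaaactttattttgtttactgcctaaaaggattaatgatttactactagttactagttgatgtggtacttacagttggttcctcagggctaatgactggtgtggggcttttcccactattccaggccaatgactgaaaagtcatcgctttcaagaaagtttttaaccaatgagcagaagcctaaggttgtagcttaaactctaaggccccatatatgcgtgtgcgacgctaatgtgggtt
Stk39: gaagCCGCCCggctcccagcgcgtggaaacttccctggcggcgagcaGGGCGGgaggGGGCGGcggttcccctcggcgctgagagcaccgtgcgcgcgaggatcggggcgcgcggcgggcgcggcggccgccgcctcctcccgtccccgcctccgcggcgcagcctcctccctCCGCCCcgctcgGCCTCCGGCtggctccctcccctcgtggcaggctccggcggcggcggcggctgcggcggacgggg
Wnk4: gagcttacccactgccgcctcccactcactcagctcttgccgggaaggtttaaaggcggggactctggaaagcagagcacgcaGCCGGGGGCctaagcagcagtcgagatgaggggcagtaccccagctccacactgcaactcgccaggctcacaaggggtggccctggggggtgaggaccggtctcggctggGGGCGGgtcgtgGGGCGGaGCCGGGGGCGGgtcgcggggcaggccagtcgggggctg
Umod: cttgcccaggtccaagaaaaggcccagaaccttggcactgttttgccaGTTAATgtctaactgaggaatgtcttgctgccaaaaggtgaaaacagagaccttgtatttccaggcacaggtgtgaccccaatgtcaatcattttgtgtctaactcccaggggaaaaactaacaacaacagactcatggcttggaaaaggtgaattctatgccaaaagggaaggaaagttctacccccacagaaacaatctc
The Stk39 window is 82.4% G and C and holds 1 AP-2 motif, at -65 to -57 from the start, and 4 GC boxes. The Wnk4 window (70%) holds 2 AP-2 motifs, at -167 to -159 and -38 to -30, the second overlapping 1 of its 3 GC boxes. Tfap2a has 1 GC box and Umod 1 HNF1 core, at -202 to -197, and none of the 3 motifs is in the Slc12a1 or Tmem52b window. Promoters of 29 of the 34 genes were matched. The AP-2 motif was found for 8 of them (27.6%, against 15.4% of 27018 genes), the HNF1 core for 5 (17.2%, against 7.49%) and the GC box for 14 (48.3%, against 35.4%). A gene counted if any of its windows matched. The 29 members had 41 windows and the 27018 genes 32841, so members had more windows per gene, which raises their shares. A match is a run of letters, and occupancy was not measured.

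Among the regulators, Tfap2a, which encodes an AP-2 transcription factor, was the member that fell most. It stood at 7.97, 8.15, 8.26 and 8.67 in control replicates 1 to 4 and at 7.58, 7.33, 7.27 and 7.37 in Grb2_cKO replicates 1 to 4. Every Grb2_cKO kidney lay below every control, 1.84-fold lower on average (log2 fold change -0.88, SE 0.14, adjusted p = 0.00135). The sex-adjusted value was again -0.88 (SE 0.24, adjusted p = 0.0647). Its relative Tfap2b, an AP-2 gene needed for distal tubule formation, had 9.36, 9.43, 9.41 and 9.36 in controls and 9.57, 9.37, 9.91 and 9.82 in Grb2_cKO. Here 3 of the 4 Grb2_cKO kidneys lay above all controls and replicate 2 lay among them, and the gene did not pass (0.28, SE 0.11, adjusted p = 0.0994). Tfap2b did pass without Grb2_cKO replicate 2. The difference Tfap2b minus Tfap2a within an embryo went from 0.68 to 1.39 in controls to 1.99 to 2.64 in Grb2_cKO, a pair set side by side after its values were seen.

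The SIM genes, bHLH-PAS transcription factors, also parted. Sim1 read 9.85, 9.84, 9.80 and 9.66 in controls and 9.31, 9.15, 9.49 and 9.55 in Grb2_cKO. The groups did not overlap, and Sim1 fell 1.33-fold (-0.41, SE 0.10, adjusted p = 0.00985). Sim2 read 8.22, 8.42, 8.68 and 8.44 in controls and 8.83, 8.64, 9.19 and 9.42 in Grb2_cKO. It rose 1.49-fold (0.58, SE 0.17, adjusted p = 0.0259), but Grb2_cKO replicate 2 lay just under control replicate 3, the 1 male control, and the sex-adjusted value was 0.33 (adjusted p = 0.532). Sim2 missed the threshold without any 1 of control replicates 1, 2 and 4 or Grb2_cKO replicates 3 and 4. Within each embryo Sim2 minus Sim1 ran from -1.63 to -1.12 among controls and from -0.51 to -0.13 among Grb2_cKO, again a pair chosen after the values were seen.

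Pou3f3, which encodes the POU factor BRN1 that the loop needs in order to form and elongate, stood at 9.23, 9.28, 9.21 and 9.15 in controls and 8.77, 8.60, 9.08 and 9.04 in Grb2_cKO. All Grb2_cKO values were below the controls, replicates 3 and 4 only narrowly, and the gene fell 1.27-fold (-0.35, SE 0.11, adjusted p = 0.0376). That call was lost without any 1 of the 4 controls or of Grb2_cKO replicates 1 and 2. The Iroquois homeobox genes of the middle segment did not pass. Irx1 was at 0.17 (SE 0.15), Irx2 at 0.19 (SE 0.12) and Irx3 at -0.12 (SE 0.10), with adjusted p of 0.454, 0.279 and 0.453. Sex-adjusted, Irx1 and Irx2 were at 0.0025 and 0.03. Control replicate 3 had the highest control value for both (6.99 and 8.15). Mecom, a zinc finger factor gene, was at 0.07 (SE 0.08, adjusted p = 0.573), and its second probe set gave 0.12. The second probe set of Irx3 gave 0.0084.

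Sostdc1, a secreted antagonist of BMP and WNT signals, read 9.45, 9.52, 9.48 and 9.40 in controls and 9.89, 9.37, 10.22 and 9.98 in Grb2_cKO. Again 3 Grb2_cKO kidneys lay above all controls, and replicate 2 lay below them. The gene was at 0.40 (SE 0.15) and did not pass (adjusted p = 0.0771), except without Grb2_cKO replicate 2 or with a trended and robust spread. The pattern of replicate 2 was general among the regulators: it had the lowest Grb2_cKO value for 9 of the 10, where it was lowest for 27.3% of all genes.

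No transport gene of the loop and distal tubule passed the threshold, and several varied widely between embryos of a group. Slc12a1, which encodes the apical sodium, potassium and chloride cotransporter of the thick ascending limb, read 8.68, 8.49, 7.88 and 6.95 in controls and 7.49, 6.71, 8.72 and 8.57 in Grb2_cKO. Both groups ran across almost the same span, 1.73 in controls and 2.02 in Grb2_cKO on the log2 scale. The log2 fold change was -0.13 with an SE of 0.48 and a 95% interval of -1.21 to 0.96, so a 2-fold fall could not be told from no change. Its sign turned without Grb2_cKO replicate 2 (0.26), control replicate 1 (0.10), control replicate 2 (0.037) or Grb2_cKO replicate 1 (0.0024). Kcnj1, the apical potassium channel gene of the same segment, read 6.39, 6.53, 6.15 and 5.76 in controls and 6.12, 5.81, 6.99 and 7.02 in Grb2_cKO. As for Slc12a1, control replicate 4 and Grb2_cKO replicate 2 were the lowest of their groups (0.28, SE 0.28, adjusted p = 0.533). Bsnd, which encodes barttin, the accessory subunit of basolateral chloride channels, read 7.16, 7.40, 7.02 and 6.95 in controls and 7.01, 6.93, 7.97 and 7.68 in Grb2_cKO (0.26, SE 0.22, adjusted p = 0.441).

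The basolateral potassium channel genes gave -0.01 (SE 0.15) for Kcnj10 and -0.11 (SE 0.18) for Kcnj16. In Kcnj10 the controls lay between 8.11 and 8.26, inside the Grb2_cKO range of 7.80 to 8.64. The claudin genes of this class did not pass either: Cldn10 was at 0.04 (SE 0.20), Cldn14 at 0.03 (SE 0.11), Cldn16 at -0.04 (SE 0.16) and Cldn19 at 0.14 (SE 0.15). Cldn19 had 8.02 to 8.14 in controls and 7.80 to 8.63 in Grb2_cKO, and its second probe set gave -0.04. The distal convoluted tubule genes were Slc12a3, the sodium and chloride cotransporter, at 0.20 (SE 0.09, adjusted p = 0.13) and the magnesium channel gene Trpm6 at -0.15 (SE 0.09, adjusted p = 0.26). Trpv5, the apical calcium channel gene, was at 0.23 (SE 0.17, adjusted p = 0.36) and passed without Grb2_cKO replicate 2. The 95% interval lay within 1 of 0 on the log2 scale for 11 of the 12 genes and within 0.5 for 7, so larger changes than these are outside the intervals for those genes only. Some of them were dim, with control means of 5.64 for Slc12a3 and 5.76 for Cldn14. Without detection calls, the intervals of dim genes may not bound a change in their RNA.

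Late transport genes were spread more widely in Grb2_cKO than in controls. The SD was larger in Grb2_cKO for 10 of the 12 genes (83.3%), where it was larger for 54.9% of all genes, and the median SD was 0.36 in Grb2_cKO and 0.16 in controls, against 0.13 and 0.12 over all genes. This was not particular to them: the SD was larger in Grb2_cKO for 85.7% of the proximal tubule genes (median SD 0.39 against 0.14), 84.2% of the ureteric genes and 73.5% of the other loop and distal tubule genes. Early regulators showed the same, with 8 of 10 and median SDs of 0.23 and 0.10. Grb2_cKO replicate 3 had the highest value of its group for 10 of the 12 late genes (20.3% of all genes), and replicate 2 the lowest for 9 (27.3%). Among controls, replicate 2 was highest for 8 (19.5% of all genes) and replicate 4 lowest for 7 (25%). The median of the late genes, taken against the control mean, was -0.11, -0.35, 0.49 and 0.23 in Grb2_cKO replicates 1 to 4. None of these differences in spread or order was tested.

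Other nephron genes differed between the same embryos. The mean of 14 proximal tubule genes, of which 3 rose and none fell (21.4% called, below the 28.1% of all genes), was 7.62, 7.39, 8.04 and 7.98 in Grb2_cKO replicates 1 to 4 and 7.20 to 7.51 in controls. Six2 and Eya1 are set beside them after their values were seen. Six2, which keeps nephron progenitors undifferentiated, stood at 10.22, 10.14, 8.37 and 8.44 in the same order and at 11.32 to 11.59 in controls, and Eya1, its partner in progenitors, at 11.46, 11.92, 10.49 and 10.50 against 12.50 to 12.57. The embryos with the lowest Six2 and Eya1, replicates 3 and 4, were those with the highest late transport and proximal tubule values among the Grb2_cKO kidneys. With 4 embryos in a group no correlation was computed, and whether the embryos differed in stage was not measured.

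**Figure D2:**
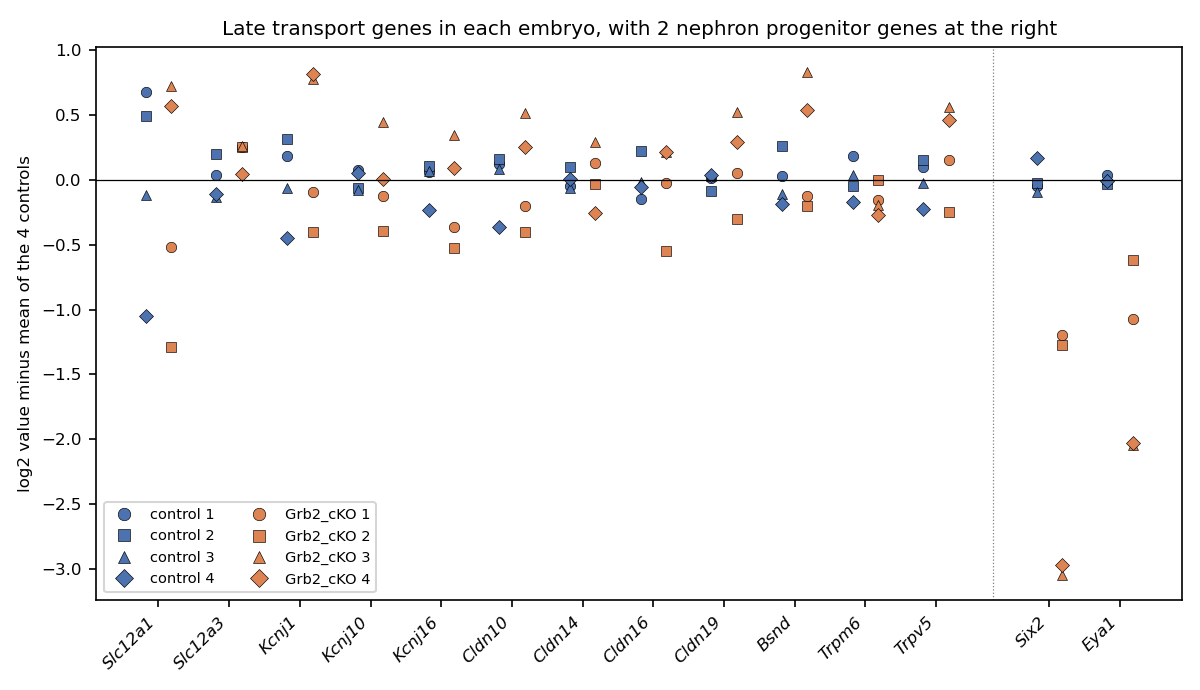
Log2 value of each late transport gene minus the mean of the 4 controls (y axis), 1 symbol per embryo, controls left and Grb2_cKO right of each tick, with the nephron progenitor genes Six2 and Eya1 beyond the dotted line. Grb2_cKO replicate 3 is highest of its group in 10 of 12 genes and replicate 2 lowest in 9, and replicates 3 and 4 are the lowest for Six2 and Eya1.

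Tmem52b, a membrane protein gene of the distal nephron, was the member that rose most. It read 11.13, 11.17, 10.90 and 10.77 in controls and 11.73, 11.38, 12.16 and 12.05 in Grb2_cKO. The groups did not overlap, and it rose 1.78-fold (0.83, SE 0.17, adjusted p = 0.00433), with a sex-adjusted value of 0.93 (SE 0.28, adjusted p = 0.0854). Tmem72, another tubular membrane protein gene, read 6.78, 7.19, 6.99 and 6.50 in controls and 7.55, 7.21, 7.87 and 7.35 in Grb2_cKO. Grb2_cKO replicate 2 was barely above control replicate 2, and the gene rose 1.55-fold (0.63, SE 0.17, adjusted p = 0.0203), a call lost without control replicate 1 or Grb2_cKO replicate 3.

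Secreted proteins and receptors fell or did not pass. Wfdc2, which encodes a small secreted protein with whey acidic protein domains, read 8.43, 8.60, 8.97 and 8.95 in controls and 8.21, 8.09, 8.48 and 8.40 in Grb2_cKO. It fell 1.36-fold (-0.45, SE 0.14, adjusted p = 0.0346) although Grb2_cKO replicate 3 lay above control replicate 1, and the call was lost without any 1 of control replicates 3 and 4 or Grb2_cKO replicates 1 and 2. Calcr, the calcitonin receptor gene, read 6.31, 6.47, 6.66 and 6.80 in controls and 6.29, 5.97, 6.26 and 5.97 in Grb2_cKO. Control replicate 1 lay barely above Grb2_cKO replicate 1, and Calcr fell 1.35-fold (-0.43, SE 0.12, adjusted p = 0.0245), not so without any 1 of control replicates 3 and 4 or Grb2_cKO replicates 2 and 4. Umod, which encodes uromodulin, the main protein of normal urine, was at 6.39 to 6.48 in controls and 6.37 to 6.66 in Grb2_cKO (0.09, SE 0.08, adjusted p = 0.508). Casr, the calcium-sensing receptor gene, was at 0.15 (SE 0.08, adjusted p = 0.211), Egf at -0.19 (SE 0.08, adjusted p = 0.129) and the kallikrein gene Klk1 at -0.08 (SE 0.13, adjusted p = 0.706). Klk1 was the 1 member among the dimmest 25% of genes. Calcr, Umod, Casr and Egf also had control means (6.56, 6.42, 6.38 and 5.87) below the array medians of 6.61 to 6.72, and no detection calls were used.

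Of the kinase genes that act on the sodium cotransporters, Stk39 fell, Wnk4 rose and Wnk1 did not pass. WNK kinases phosphorylate SPAK, encoded by Stk39, and its relative OSR1, which activate the cotransporters. Stk39 read 10.17, 10.07, 9.98 and 10.03 in controls and 9.78, 9.72, 9.78 and 9.65 in Grb2_cKO. The groups lay apart with an SD of 0.08 and 0.06, and Stk39 fell 1.26-fold (-0.33, SE 0.07, adjusted p = 0.00554). In the sex-adjusted fit (limma) Stk39 was at -0.24 (SE 0.11, adjusted p = 0.258). Wnk4 read 8.38, 8.18, 8.45 and 8.37 in controls and 8.58, 8.52, 8.56 and 8.85 in Grb2_cKO. It rose 1.22-fold (0.28, SE 0.09, adjusted p = 0.0467), close enough to the threshold that the call was lost without any 1 embryo except Grb2_cKO replicate 2, and when array medians were centred. Wnk1 was at 0.13 (SE 0.07, adjusted p = 0.223), and Ppp1r1a, which encodes an inhibitor of protein phosphatase 1, at -0.20 (SE 0.10, adjusted p = 0.153). Without any 1 embryo, Tfap2a, Sim1, Tmem52b and Stk39 passed in every case.

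**Figure D3:**
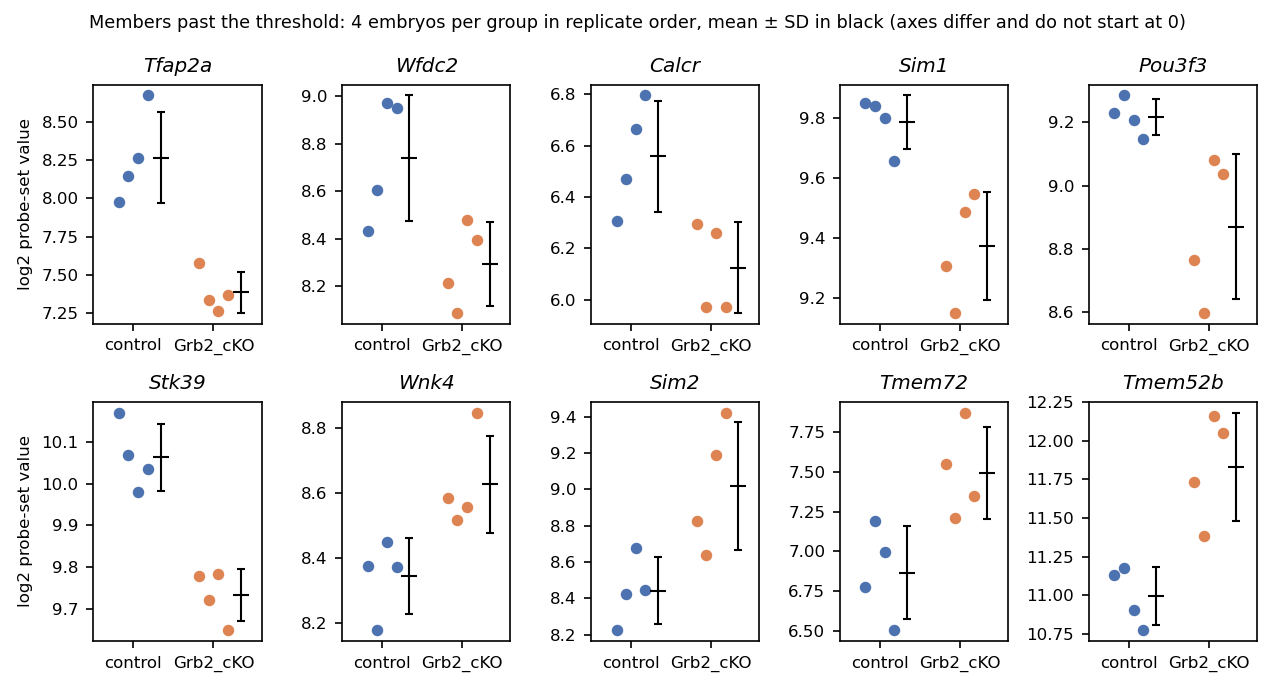
Log2 probe-set values (y axis, scaled per gene) of the 10 members past the threshold in 4 control and 4 Grb2_cKO embryos, with mean ± SD in black, ordered from the largest fall in Tfap2a to the largest rise in Tmem52b. Groups overlap only in Sim2 and Wfdc2.

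Beyond the 34, a list of 40 other loop and distal tubule genes had 34 measured, of which 9 rose, 9 fell and 16 did not pass (52.9% called, against 28.1% of all genes; median 0.07). Ptger3, a prostaglandin receptor gene of the thick ascending limb, rose 3.39-fold (1.76, SE 0.11) and Scnn1a, a subunit of the epithelial sodium channel, 1.68-fold (0.75, SE 0.12). Genes of further subunits of that channel, named after their values were seen, went the other way. Scnn1g fell (-0.30, SE 0.08), and Scnn1b was at -0.23 (SE 0.11) and did not pass. Calb1, calbindin of the distal tubule and also of the ureteric bud, fell 11.6-fold (-3.53, SE 0.32). The claudin genes Cldn3 and Cldn8, found in the distal nephron and the collecting duct, fell by 0.74 (SE 0.12) and 0.43 (SE 0.09), and Oxsr1, which encodes OSR1, fell by 0.30 (SE 0.06). Other genes of the WNK pathway, named here after their values were seen, also passed: Cab39l, a scaffold of SPAK and OSR1, fell by 0.35 (SE 0.08) and Cul3, a ubiquitin ligase scaffold, by 0.26 (SE 0.07), while Klhl3, its adaptor for WNK kinases, rose by 0.38 (SE 0.08). Sex-adjusted, 3 of the 18 called genes passed the same way: Ptger3, Calb1 and Cldn3. Of the 6227 genes called in the whole series, 1213 did so. Calb1 is on the ureteric list as well, whose mean level was lower as given above.

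A list of nephron segment patterning genes, upstream of the loop, had 12 of 25 measured genes lower, 1 higher and 12 not passing (median -0.29), where 14.3% of all genes were lower and 13.7% higher. Beside Dkk1, Wnt4, Bmp2 and Lhx1, which fell by 1.32, 1.06, 0.80 and 0.67, Pax2 fell by 0.96 (SE 0.14) and Emx2, a homeobox gene of the ureteric bud and early nephron, by 0.48 (SE 0.07). The 1 gene that rose was Ppargc1a, a coactivator of mitochondrial genes, by 0.59 (SE 0.12), named after its values were seen. Sex-adjusted, 6 of the 13 called genes passed, all of them lower, again beside 1213 of the 6227 genes called in the whole series. The NOTCH ligand genes of the S-shaped body, Jag1 and Dll1, also named after their values were seen, fell by 0.46 (SE 0.11) and 0.30 (SE 0.09), and the receptor genes Notch1 and Notch2 were at 0.02 (SE 0.08) and -0.0034 (SE 0.06).

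Adding the Y-linked average widened the errors and moved the sizes unevenly. Tfap2a, Sim1 and Pou3f3 were at -0.88, -0.43 and -0.33. Sim2, Tmem72 and Wnk4 came down to 0.33, 0.51 and 0.18, and Stk39 shrank to -0.24. Wfdc2, Calcr and Tmem52b went to -0.68, -0.54 and 0.93. With 1 male control, sex and the variation of that embryo cannot be told apart in these sizes. The median SE of the 34 genes went from 0.12 to 0.20. The smallest adjusted p among them was then 0.0647, that of Tfap2a. With the erythroid mean in the model, which lies apart between the groups, Tfap2a (-1.52, adjusted p = 0.00675) and Tmem52b (1.44, adjusted p = 0.0248) passed. Pou3f3 was then at -0.05 (adjusted p = 0.929), Sim1 at -0.13 (adjusted p = 0.737) and Stk39 at -0.22 (adjusted p = 0.418). Tmem72 was at 1.04, Calcr at -0.78, Wfdc2 at -0.67, Sim2 at 0.67 and Wnk4 at 0.26, with adjusted p from 0.0835 to 0.517. Against control replicate 3 alone, an alternative chosen after seeing the data, 0 of the 34 passed in limma (1.28% of all genes did), the 10 called genes kept their direction, and Tfap2a was at -0.88 and Tmem52b at 0.93. Control replicate 3 is among the controls that made these calls, and in that fit it is assumed to vary like the Grb2_cKO embryos. It lay outside the Grb2_cKO range for 9 of the 10 called genes, Sim2 being the exception. For 8 of the 10 the groups did not overlap, which fixes this in advance, so the count cannot speak to sex.

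**Figure D4:**
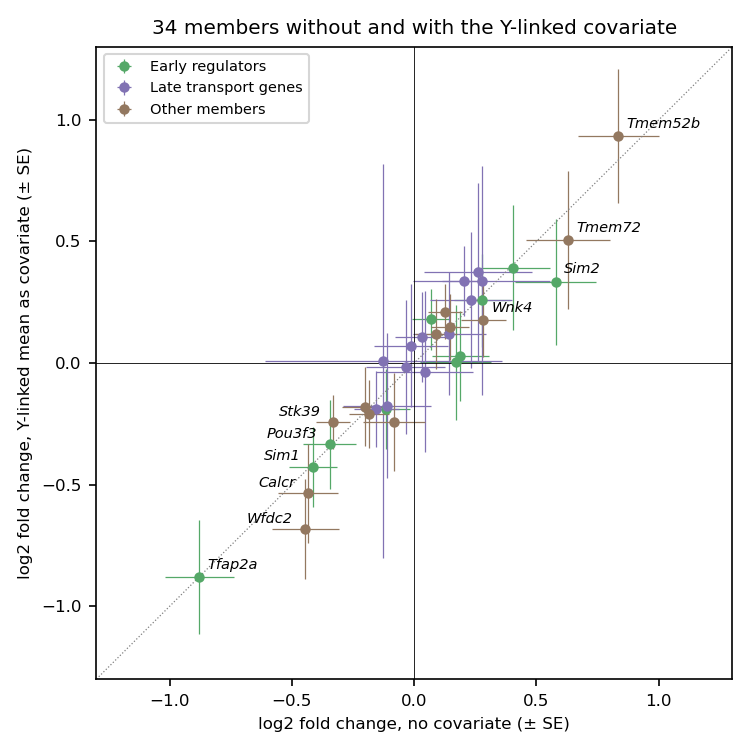
Sex-adjusted log2 fold change of the 34 members (y axis) against the unadjusted one (x axis), bars ± SE, dotted line of equality, with the 10 members past the threshold unadjusted named. The named genes keep their side of 0, and the bars are longer on the y axis.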

How the data were processed

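The authors' deposited values are on the log2 scale, for 41345 probe sets on 1-colour arrays. Per the labels' protocols, 200 ng of total RNA per embryo was amplified with the Ambion WT kit. Transcriptome Analysis Console is the software listed in the submitters' processing notes. Background correction and normalization are not stated there, and no values were normalized again. The log2 scale was read from the range, 1.25 to 14.08, with array medians of 6.61 to 6.72. No detection calls or scan dates were used, so probe sets near background were not marked and batches were not tested.

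Probe sets with 1 gene symbol (23521) were named through the platform annotation, updated by Entrez identifier to GRCm38.p6 RefSeq symbols, and each gene was read from its brightest probe set, by the mean of the 8 arrays. Those with several symbols (1814) or none (16010) were left out. Limma 3.58.1 (R 4.3.3) compared the groups on all genes, with no covariate, after a test on simulated data. Differences are given as Grb2_cKO minus control, with limma's moderated SE. The number of arrays limits the precision. Replicate numbers follow the order of the records and pair nothing.

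The members and lists were chosen with earlier results of these data known, so no list was tested as a set. All members are named, with values in each embryo for those past the threshold or of size 0.5 and for those singled out. From other lists, up to 6 genes of smallest p are named, and others are marked. Alternatives were other scalings, filters, spreads, weights and thresholds, 2 covariates (the Y-linked mean and the erythroid mean) and leaving out each embryo. Promoter windows come from RefSeq.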

Additional observations from a re-analysis of the deposited data

Results flagged for a closer look

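In 3 of the 70 groups of 4 embryos examined (Grb2 and the 34 members in each genotype), 1 embryo stood far from the other 3 by Dixon's criterion, which chance meets in about 1 of 20 groups. Slc12a3 was at 5.69 in Grb2_cKO replicate 4 and at 5.89 to 5.90 in the other Grb2_cKO embryos. Kcnj16 was at 8.39 in control replicate 4, with the other controls at 8.69 to 8.74, and Cldn10 was at 6.64 in the same embryo, with the others at 7.09 to 7.16.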

How the results depend on the processing

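Quantile normalization, leaving out the dimmest 25% of genes, averaging probe sets, a trended and robust spread and array weights kept all 10 member calls. Centring array medians kept 9, losing Wnk4 and adding Egf. No alternative reversed a called member, but with the Y-linked covariate 6225 of all 6227 called genes also kept their sign, and against control replicate 3 alone 6226. With the Y-linked covariate 0 members were higher and 0 lower, the other loop and distal list had 1 higher and 2 lower, the patterning list 0 higher and 6 lower, 1246 genes passed in all (limma, 4758 at an unadjusted p under 0.05), and Grb2 was at -0.40 (adjusted p = 0.10). Control replicate 3 as the only control gave 0 and 0, 1 and 1, 0 and 3, 285 genes in all and -0.41 for Grb2. The erythroid covariate, which differs between the groups, gave 1 member higher and 1 lower, 2 and 4 in the loop and distal list, 4 lower in the patterning list, 1203 genes in all, and -0.50 for Grb2. It also put the late median at 0.51 and the early minus late difference at -0.23, against 0.08. That difference also turned negative with the Y-linked covariate (-0.0718), against control replicate 3 (-0.0597) and without Grb2_cKO replicate 2 (-0.0058). The Y-linked fit rests on control replicate 3, so it and the fit against that embryo are nearly the same comparison. At an adjusted p of 0.01, 1 member was higher and 3 lower, and 3809 genes passed. The 1 patterning gene that was higher became 2 after quantile normalization and with array weights, 3 without the dimmest genes and with the trended spread, and 4 at 0.1. Leaving out each embryo gave 1 to 7 members higher, 3 to 6 lower and 1 to 3 patterning genes higher. The number of all genes called moved too, from 6227 to 4894 without control replicate 2, for example.

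Members that did not pass changed sign where they lay near 0. Slc12a1 was at 0.0087 with the Y-linked and 2.04 with the erythroid covariate, and -0.48 to 0.26 when each embryo was left out. Kcnj10 was at 0.0641 with array weights, 0.0707 with the Y-linked and 0.41 with the erythroid covariate, and 0.0611 against control replicate 3. Cldn10 was at -0.0374 after quantile normalization, -0.0355 with the Y-linked covariate, -0.0385 against control replicate 3 and -0.0242 with centred medians, which put Cldn14 at -0.0338. Leaving out each embryo gave -0.17 to 0.11 for Kcnj10, -0.26 to 0.0277 for Kcnj16, -0.12 to 0.19 for Cldn10, -0.0516 to 0.13 for Cldn14, -0.12 to 0.13 for Cldn16 and -0.16 to 0.0125 for Klk1. With the erythroid covariate Kcnj16 was at 0.56, Cldn16 at 0.17, Trpm6 at 0.0105 and Klk1 at 0.0528. The cause of these shifts was not tested. The 4 embryos per group and the lack of detection calls limit what can be said of dim genes.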
